A study of Rattus norvegicus with 138 samples.

Results

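Chemokines are small secreted proteins that attract white blood cells along a gradient, and 10 genes of the CXC and CX3C families were followed here in rat muscle after volumetric muscle loss (VML), a surgical removal of tissue too large for the muscle to rebuild. The members were taken by gene symbol from the table of TPM values, a transcript abundance corrected for length and scaled to one total in every library: the ligands Cxcl1, Cxcl2, Cxcl9, Cxcl10, Cxcl12, Cxcl14, Cxcl16 and Cx3cl1 and the receptors Cxcr4 and Cx3cr1. All 10 were present among 16181 symbols, and all 10 passed the filter on low values, a group mean above 1 TPM in at least 1 group, together with 11328 genes in all. Cxcl1, Cxcl2 and Cx3cr1 passed through injured groups alone, since they read under 1 TPM in every uninjured muscle. Being higher in injured muscle was thus in part a condition of their entry.

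RNA came from the whole tibialis anterior (TA) muscle of male Lewis rats of about 4 months, and 114 muscles of 78 rats in 31 groups entered the comparisons. Injured muscles had a 6 mm full-thickness punch removed from the middle of one TA, and were left empty (non-repaired) or filled with an autologous minced muscle graft, small pieces cut from the excised tissue of the same rat. Contralateral muscles are the unoperated TA of the other leg of operated rats, and control muscles are 4 muscles of 2 rats that carry the labels Sham and day 0, and the study's text calls its control muscles unoperated. Muscles were collected 3, 7, 14 or 28 days post injury (DPI), and some rats of each treatment carry the label of running, whose form was not given in the sources used here. Among rats that did not run, non-repaired injured muscles numbered 3, 8, 4 and 4 at 3, 7, 14 and 28 DPI and their contralateral muscles 2, 4, 2 and 2, whereas grafted muscles numbered 7, 8, 4 and 4 and their contralateral muscles 2, 6, 2 and 2. Among running rats, non-repaired injured muscles numbered 8, 4, 4 and 2 and grafted muscles 6, 4, 4 and 2. The contralateral muscles of running rats numbered 2 for each treatment at 3, 7 and 14 DPI.

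CXCL1 and CXCL2 carry a Glu-Leu-Arg motif before the paired cysteines and draw neutrophils through CXCR2, whereas CXCL9 and CXCL10 lack the motif, are induced by interferon and draw activated T and natural killer cells through CXCR3. CXCL12 is made by stromal cells and acts on CXCR4, a pair that guides leukocytes and progenitors, muscle progenitors included. CXCL16 and CX3CL1 (fractalkine) are made as membrane-anchored proteins that the proteases ADAM10 and ADAM17 can release, and they bind CXCR6 and CX3CR1. CX3CR1 marks monocytes, tissue macrophages and cytotoxic lymphocytes.

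The sequence upstream of the start of each gene was examined because NF-kB and interferon signaling act on several of these genes. RefSeq promoter entries (build GRCr8, a later build than the one used for the TPM) matched all 10 members, and the 250 bases before the start were searched on both strands. The letters GGGNNNNNCC, a loose form of the NF-kB site written GGNNNNNCCC on the opposite strand, occurred in 4 of the 10 members, and 42.3% of 33469 promoters of the same length held them. The letters GAAANNGAAA (opposite strand TTTCNNTTTC), a loose interferon response element, occurred in Cxcl10 alone among the members, and 3.41% of the promoters held them. The 4 sequences with a match are shown 5′ to 3′ along the gene and end at the base before its start, with matches in capitals and overlapping matches merged. Cxcl1 lies at chr14:17479322-17479571 and Cxcl2 at chr14:17467256-17467505, both on the minus strand, and Cxcl9 at chr14:16006916-16007165 and Cxcl10 at chr14:15988816-15989065, both on the plus strand.
Cxcl1: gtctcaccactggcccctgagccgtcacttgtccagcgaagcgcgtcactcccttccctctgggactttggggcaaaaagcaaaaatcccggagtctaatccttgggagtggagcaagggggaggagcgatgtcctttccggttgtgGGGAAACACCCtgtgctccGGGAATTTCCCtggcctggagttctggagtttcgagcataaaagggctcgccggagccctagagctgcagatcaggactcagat
Cxcl2: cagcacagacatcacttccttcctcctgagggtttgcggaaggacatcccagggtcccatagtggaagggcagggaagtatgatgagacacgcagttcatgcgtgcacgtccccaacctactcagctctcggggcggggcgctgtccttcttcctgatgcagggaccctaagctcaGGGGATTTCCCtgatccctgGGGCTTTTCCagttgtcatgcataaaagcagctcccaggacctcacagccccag
Cxcl9: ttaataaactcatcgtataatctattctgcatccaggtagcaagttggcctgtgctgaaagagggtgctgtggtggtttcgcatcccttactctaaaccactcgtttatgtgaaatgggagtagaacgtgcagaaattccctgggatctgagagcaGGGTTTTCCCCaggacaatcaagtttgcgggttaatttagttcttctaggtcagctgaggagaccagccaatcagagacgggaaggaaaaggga
Cxcl10: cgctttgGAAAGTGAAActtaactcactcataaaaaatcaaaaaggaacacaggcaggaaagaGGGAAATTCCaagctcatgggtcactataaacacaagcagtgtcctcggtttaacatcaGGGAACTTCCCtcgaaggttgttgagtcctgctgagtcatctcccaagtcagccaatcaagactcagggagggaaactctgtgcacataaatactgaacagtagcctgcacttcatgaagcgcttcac
The Cxcl10 run GAAAGTGAAA, 243 to 234 bases before the start, is the interferon match, and the other capitals are NF-kB matches. In Cxcl1 and Cxcl2 all matches lay within the last 103 bases, and the Cxcl1 matches began 103 and 84 bases before the start. A match is a run of letters and not evidence that a factor bound there, and these muscles were not assayed for binding.

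Libraries with fewer than 7000 symbols above 1 TPM were left out. The 13 libraries removed held 901 to 5712 such symbols and the libraries kept 7866 to 10948, and 10 of the 13 came from 7 DPI. TPM keeps no depth, and although the study's methods describe an average depth and a lower limit on reads, the depth of a single library was not given in the sources used here, so no counting error accompanies a value. Differences were fitted across all tested genes with limma on log2(TPM + 1), a scale that understates the change of genes near 0, and a call required a log2 fold change past 1 in size together with a Benjamini-Hochberg adjusted p below 0.05. The tested genes as a whole lay higher in injured muscle: the median log2 fold change of injured over control muscle was 0.96, 0.91, 0.53 and 0.52 at 3, 7, 14 and 28 DPI. Not all genes moved that way, and 4.24% were called lower at 3 DPI. The markers of skeletal muscle fibers, which hold much of the total, summed to 175800 to 206700 TPM in control muscle and to 34700 to 47160 TPM in injured muscle at 3 DPI. Values rescaled by median-of-ratios size factors, which brought those medians to 0.12, 0.11, 0.04 and 0.05, are given beside counts of called members and beside many of the single values. All control muscles come from one numbered series of rats and all operated muscles from another, so that series and injury cannot be told apart in a comparison with control. In whole tissue, more cells of a type and more RNA per cell cannot be told apart.

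At 3 DPI, 9 of the 10 genes were higher in non-repaired injured than in control muscle, all except Cx3cl1, when 48.3% of all tested genes were called higher. Among the 9, Cxcl1, Cxcl2 and Cx3cr1 had passed the filter through injured groups alone. At 7 DPI 7 genes were called against 45.6% of all genes, and 5 were called at 14 DPI (25% of all genes) and at 28 DPI (21.1%). The median log2 fold change of the members was 2.23, 2.09, 1.25 and 1.21 at the 4 times. After rescaling, the members called numbered 5, 6, 4 and 2, beside 40.8%, 35.7%, 21.4% and 14.5% of all genes called in either direction, with medians of 1.60, 1.16, 0.86 and 0.67. Against contralateral muscle of the same treatment 7, 6, 5 and 3 members were called, beside 32.3%, 45.3%, 20.9% and 13.1% of all genes, and after rescaling 5, 5, 3 and 2, beside 33.8%, 31.2%, 14.1% and 8.62% called in either direction. Cxcl16 and Cxcr4 were called at every time in both comparisons. With rescaled values the same held except for Cxcr4 against contralateral muscle at 14 DPI, where the log2 fold change was 0.68. The comparisons with control share the same 4 control muscles.

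**Figure D1:**
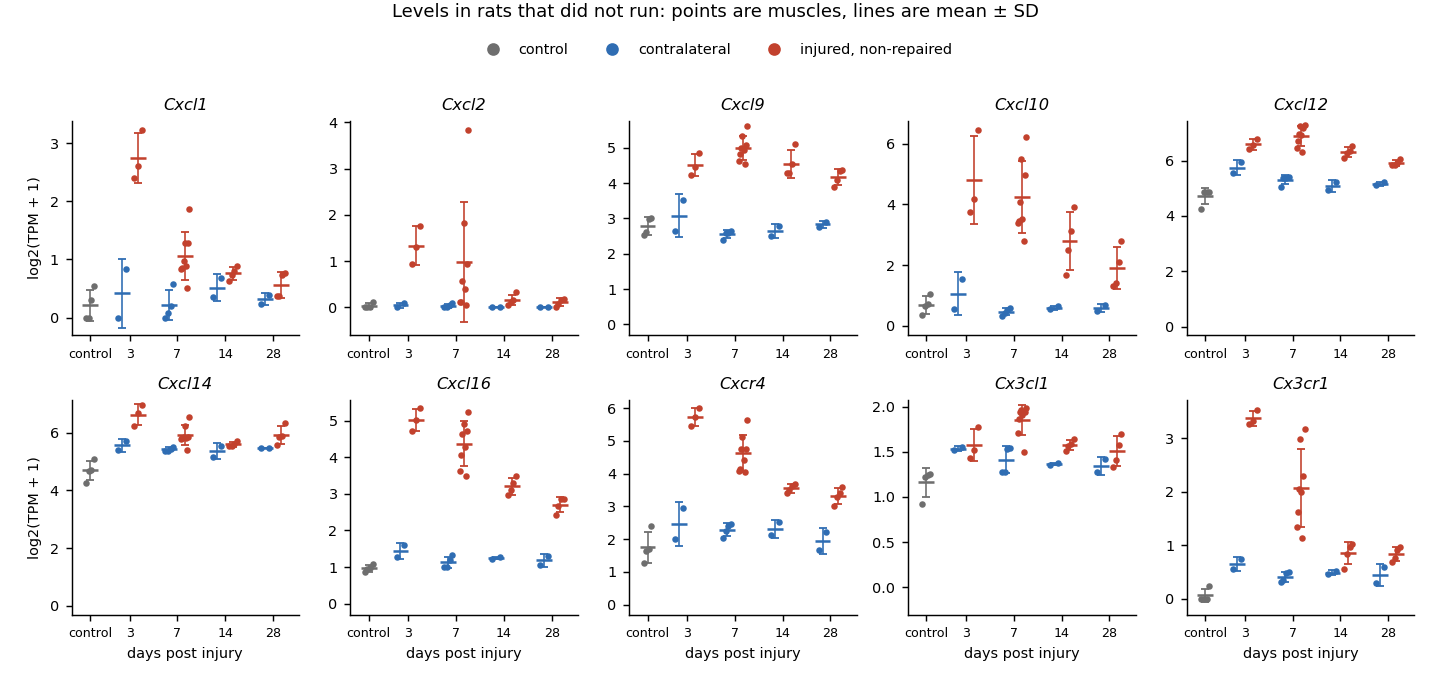
Levels of the 10 genes as log2(TPM + 1) (vertical axes, which differ between panels) in control muscle and in contralateral and non-repaired injured muscle of rats that did not run, by days post injury. Points are muscles, and bars are the mean ± SD. Cxcl1 and Cx3cr1 stood highest at 3 DPI, Cxcl9 and Cxcl12 at 7 DPI, and Cx3cl1 stayed within a narrow range throughout.

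The CXCR2 ligands Cxcl1 and Cxcl2 were called over control at 3 DPI alone on this scale. Cxcl1 read 4.31 to 8.31 TPM in the 3 injured muscles at 3 DPI and 0, 0.24, 0.46 and 0 TPM in the 4 control muscles. The injured muscles stood far above the controls without overlap, with a log2 fold change of 2.53 ± 0.30 (SE; limma adjusted p = 2.13e-12) and of 2.32 ± 0.36 over contralateral muscle. Between 3 and 7 DPI Cxcl1 fell by 1.68 on the log2 scale (SE 0.27, adjusted p = 2.54e-07), to a range of 0.42 to 2.64 TPM with a median of 0.905 over 8 muscles. It was not called over control from 7 DPI on, where its log2 fold change of 0.84 lay under the limit, and at 28 DPI the injured muscles read 0.29, 0.7, 0.67 and 0.29 TPM. The end of the calls depends on the pseudocount: with 0.1 TPM in place of 1, Cxcl1 was called at 7, 14 and 28 DPI (2.44, 1.92 and 1.41) and Cxcl2 at 7 DPI (2.52).

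Cxcl2 was at or near the bottom of the table in uninjured muscle, being listed at 0 in 3 of the 4 controls and at 0.08 TPM in the other. The injured muscles at 3 DPI read 2.4, 1.48 and 0.91 TPM, all above the controls. The log2 fold change was 1.31 ± 0.60 with an adjusted p of 0.038, and this call rested on single muscles. Without injured replicate 1 the log2 fold change was 1.09 (adjusted p = 0.13), without injured replicate 2 it was 1.32 (adjusted p = 0.0683), and without control replicate 2, 3 or 4 it was 1.30 with adjusted p values of 0.0555, 0.0554 and 0.0571. With the control muscles averaged per rat it was 1.31 and not called (adjusted p = 0.0892). Rescaled values gave 1.08 and no call, and against contralateral muscle the gene was not called (1.29 ± 0.72, adjusted p = 0.0982). At 7 DPI its spread was the widest of the members relative to its mean, from 0.04 to 13.25 TPM with a median of 0.4, and the next muscle below the highest read 2.53 TPM. In grafted muscle at 3 DPI it ranged from 1.28 to 10.7 TPM (median 4.37, n = 7), and both contralateral muscles of that group were listed at 0.

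Of the CXCR3 ligands, Cxcl9 was called over control at every time and Cxcl10 to 14 DPI. Cxcl10 read 17.15, 86.53 and 12.41 TPM in injured muscle at 3 DPI and 1.09, 0.56, 0.65 and 0.27 TPM in control muscle. One injured muscle was several times above the others, and all were above every control, with a log2 fold change of 4.10 ± 0.77 (adjusted p = 1.26e-06). On this scale it was the largest among the members at that time together with Cxcl16, whereas with a pseudocount of 0.1 TPM Cx3cr1 (6.19) stood above Cxcl10 (5.28). At 7 DPI Cxcl10 ranged from 5.98 to 73.27 TPM with a median of 13.27, and its log2 fold change was 3.55 ± 0.62. It fell by 1.44 on the log2 scale from 7 to 14 DPI (SE 0.62, adjusted p = 0.0319), a call that was lost after rescaling (-1.08, adjusted p = 0.132) and without injured replicate 2 (-1.07) or 3 (-1.34) of 14 DPI. At 14 DPI the injured muscles read 7.78, 2.18, 4.63 and 13.91 TPM, and the log2 fold change over contralateral muscle of 2.20 ± 0.87 (adjusted p = 0.0233) was lost without contralateral replicate 1 (2.16, adjusted p = 0.0972), contralateral replicate 2 (2.24, adjusted p = 0.095) or injured replicate 4 (1.83, adjusted p = 0.0764). At 28 DPI the values of 1.51, 5.93, 3.31 and 1.65 TPM were all above the controls, but the log2 fold change of 1.22 ± 0.71 was not called (adjusted p = 0.118). With a pseudocount of 0.1 TPM it was 2.01 and was called (adjusted p = 0.0212).

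Cxcl9 was already present in uninjured muscle, at 4.78 to 7.06 TPM in the 4 controls. It read 17.79, 27.94 and 20.72 TPM at 3 DPI and 22.12 to 47.68 TPM (median 30.12) at 7 DPI, with no overlap with control at any time. The log2 fold changes over control were 1.73 ± 0.25, 2.21 ± 0.20, 1.77 ± 0.24 and 1.39 ± 0.24 at the 4 times. The step from 3 to 7 DPI, 0.48 ± 0.23, was not called (adjusted p = 0.0821). Rescaled values kept Cxcl9 called at 7 and 14 DPI (1.22 and 1.16) and gave 0.68 and 0.79 at 3 and 28 DPI. Over contralateral muscle at 3 DPI the log2 fold change of 1.43 fell to 0.90 after rescaling and to 0.99 without contralateral replicate 2, both under the limit. Relative to its level in control muscle Cxcl9 changed less than Cxcl10: at 7 DPI the ratio of mean TPM was 5.31 for Cxcl9 and 38.8 for Cxcl10, although the means of injured muscle, 31.6 ± 8.35 and 24.9 ± 23.4 TPM (SD, n = 8), lay within 1 SD of Cxcl10.

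Cxcl16, the ligand of CXCR6, stayed within 0.81 to 1.11 TPM in the 4 control muscles and read 39.62, 31.4 and 25.55 TPM at 3 DPI. The lowest injured muscle lay far above the highest control, and the log2 fold change was 4.07 ± 0.27 (adjusted p = 4.19e-25). It ranged from 10.29 to 36.57 TPM (median 21.2) at 7 DPI, read 7.55, 6.79, 10.14 and 8.91 TPM at 14 DPI, and 4.35, 5.39, 6.28 and 6.29 TPM at 28 DPI. The injured muscles at 28 DPI were still all above every control, with a log2 fold change of 1.75 ± 0.25 (adjusted p = 3.38e-09), or 1.39 after rescaling. The fall from 7 to 14 DPI of 1.16 ± 0.21 was called as deposited and was 0.79 after rescaling, under the limit.

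Cxcl12 was the most abundant member in control muscle together with Cxcl14. It read 27.83, 28.02, 28.45 and 18.23 TPM there and 93.72, 109.11 and 83.71 TPM in injured muscle at 3 DPI. Its level was highest at 7 DPI, from 77.41 to 156.1 TPM with a median of 122.2, and came down to 55.76, 59.15, 56.6 and 66.12 TPM by 28 DPI, still above all controls. The log2 fold changes over control were 1.87 ± 0.18, 2.17 ± 0.15, 1.59 ± 0.17 and 1.20 ± 0.17, of which only the one at 7 DPI (1.11) stayed called after rescaling. Against contralateral muscle the log2 fold change at 3 DPI was 0.85 ± 0.22, under the limit, and the contralateral muscles read 60.14 and 45.63 TPM, above all 4 controls. Without contralateral replicate 1 it was 1.04 and was called.

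Cxcr4, the receptor for CXCL12, had a larger log2 fold change than its ligand at 3 DPI. It read 63.36, 52.06 and 43.22 TPM at 3 DPI and 2.11, 2.26, 4.28 and 1.42 TPM in control muscle, with a log2 fold change of 3.98 ± 0.26 (adjusted p = 1.87e-25). It fell by 1.11 to 7 DPI (SE 0.23, adjusted p = 4.96e-05), a call lost without injured replicate 1 of 3 DPI (-0.98), and by a further 1.07 to 14 DPI (SE 0.21, adjusted p = 7.52e-06, and 0.69 after rescaling). At 28 DPI it read 7.03, 9.54, 8.72 and 10.95 TPM, all above the highest control, with a log2 fold change of 1.56 ± 0.24. The mean of the ligand was highest at 7 DPI and that of the receptor at 3 DPI, but the step of Cxcl12 from 3 to 7 DPI, 0.30 ± 0.16, was not called (adjusted p = 0.137).

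Cxcl14, a chemokine of epithelium and stroma whose receptor is not settled, read 24.66, 25.39, 33.23 and 18.12 TPM in control muscle and 100.48, 74.74 and 124.28 TPM at 3 DPI. All injured muscles were above the controls, with a log2 fold change of 1.94 ± 0.27 (adjusted p = 6.15e-10), or 0.81 after rescaling. Its later course had no steady slope: the means were 60.9 ± 15.8 at 7 DPI (n = 8), 47.2 ± 2.68 at 14 DPI and 60.2 ± 14.0 TPM at 28 DPI (SD, n = 4 each). At 14 DPI the log2 fold change over control of 0.90 was not called, and without control replicate 3 it was 1.04 and was called. Over contralateral muscle it was called at 3 DPI alone (1.07 ± 0.33), a call lost after rescaling (0.50) and without contralateral replicate 2 (0.92) or injured replicate 3 (0.90). At 7, 14 and 28 DPI that difference was 0.49, 0.24 and 0.45 as deposited and -0.59, -0.41 and -0.02 after rescaling, so its sign depends on the scaling. Contralateral muscle held 41.44 and 51.21 TPM of Cxcl14 at 3 DPI and 40.33 to 44.81 TPM at 7 DPI, above all 4 controls.

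The receptor and the ligand of the CX3C pair differed in course. Cx3cr1 was listed at 0 in 3 control muscles and at 0.18 TPM in the other, and read 10.57, 8.65 and 8.94 TPM in injured muscle at 3 DPI. The log2 fold change was 3.31 ± 0.28 over control and 2.73 ± 0.34 over contralateral muscle, which read 0.47 and 0.66 TPM. It fell by 1.30 to 7 DPI (SE 0.25, adjusted p = 1.64e-05), where it ranged from 1.19 to 8 TPM with a median of 3.07, and by 1.23 to 14 DPI (SE 0.23, adjusted p = 3.15e-06, and 0.96 after rescaling). At 28 DPI it read 0.61, 0.94, 0.69 and 0.88 TPM, above every control, but the log2 fold change of 0.77 ± 0.26 lay under the limit. With a pseudocount of 0.1 TPM Cx3cr1 was called at 14 and 28 DPI too (2.77 and 2.75).

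Cx3cl1 was the only member not called over control at any time, although with a pseudocount of 0.1 TPM it was called at 7 DPI (1.02). It read 1.37, 1.38, 1.33 and 0.9 TPM in control muscle and 1.7, 2.42 and 1.87 TPM at 3 DPI, above the controls by a small margin. Its log2 fold changes over control were 0.42 ± 0.12, 0.69 ± 0.09, 0.42 ± 0.11 and 0.35 ± 0.11, with adjusted p values of 0.000919, 2.54e-10, 0.000488 and 0.00375, all smaller than the median shift of all genes at 3, 7, 14 and 28 DPI. After rescaling they were -0.30 at 3 DPI, close to 0 at 7 and 14 DPI and -0.06 at 28 DPI, so that their sign depends on the scaling. At 3 DPI Cx3cl1 overlapped between injured and contralateral muscle, with a difference of 0.04 (95% interval -0.24 to 0.32).

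**Figure D2:**
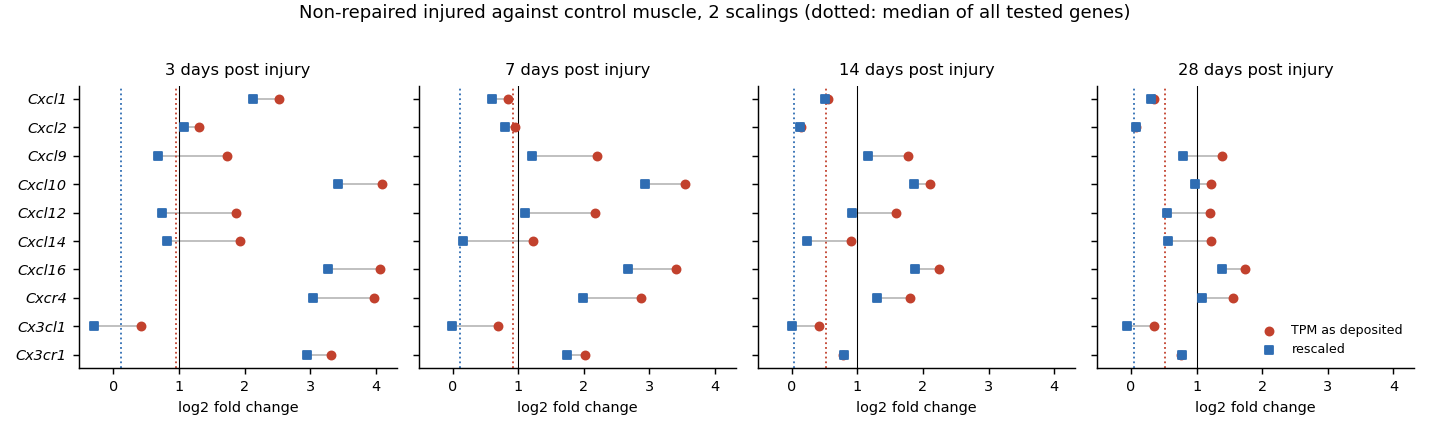
Log2 fold changes of log2(TPM + 1) of the 10 genes in non-repaired injured over control muscle at 3, 7, 14 and 28 days post injury, as deposited (circles) and rescaled by size factors (squares). The solid line marks the limit of 1 and the dotted lines the medians of all tested genes, 0.96 and 0.12 at 3 DPI. Cxcl10, Cxcl16 and Cxcr4 stay beyond 1 at 3, 7 and 14 DPI under both, whereas Cx3cl1 crosses 0 at 3 DPI.

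Between days, 3 members fell from 3 to 7 DPI (Cxcl1, Cxcr4 and Cx3cr1) when 5.35% of all genes were called lower, and the same 3 were called after rescaling, beside 6.53% of all genes called in either direction. From 7 to 14 DPI 4 members fell (Cxcl10, Cxcl16, Cxcr4 and Cx3cr1), beside 6.1% of all genes, and after rescaling limma called none, beside 4.2% of all genes called in either direction, and 3 members had an unadjusted p under 0.05, beside 54.4% of all genes on the rescaled values. From 14 to 28 DPI limma called no member, beside 0.353% of all genes called lower, and 2 members had an unadjusted p under 0.05, beside 13.8% of all genes: Cxcl12 (-0.39) and Cxcl16 (-0.50). The muscles at 7 DPI came from rats numbered 1 to 32 and from rats of the highest number range, 4 of each. Cxcl2, Cxcl12, Cxcl16 and Cx3cl1 did not overlap between these ranges, as did not 24.7% of all genes, and the other members overlapped. Cxcl2 read 0.48 to 13.25 TPM in the lower range and 0.04 to 0.32 TPM in the upper. Cxcl16 read 23.86 to 36.57 TPM in the lower range and 10.29 to 18.53 TPM in the upper, and Cxcl12 122.9 to 156.1 and 77.41 to 121.5 TPM. Cx3cl1 went the other way, with 1.82 to 2.76 TPM in the lower and 2.83 to 2.95 TPM in the upper range. All injured muscles of 3 DPI without repair and running came from rats 1 to 32, so the step from 3 to 7 DPI also mixes ranges. Mean Cxcr4 was 52.88 TPM at 3 DPI, and at 7 DPI 32.17 TPM in the lower and 18.6 TPM in the upper range. Cx3cr1 averaged 9.387 TPM, then 5.272 and 2.18 TPM, and Cxcl1 5.897 TPM, then 1.575 and 0.7525 TPM. The falls within the lower range were not fitted. All injured muscles of 14 DPI came from the highest number range, which held only 4 of the muscles at 7 DPI. Those of 28 DPI came from rats numbered between these ranges, so day and range cannot be told apart in the step from 14 to 28 DPI. With the range as a covariate 2 members fell from 7 to 14 DPI, beside 4.42% of all genes called in either direction.

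Between contralateral and control muscle 1 member was called at 3 DPI, Cxcl12 at 1.03 ± 0.21, beside 6.37% of all genes. Without a limit on the fold change 4 members passed the adjusted p at 3 DPI, as did 54.1% of all genes. In each of the 34 contralateral muscles of all times and arms Cxcl12 (29.06 to 66.27 TPM) and Cxcl14 (34.58 to 63.37 TPM) lay above every control, the highest of which read 28.45 and 33.23 TPM. The share of all genes that separate in this way over the 34 muscles was not taken. Whether the separation is particular to these genes or general between the 2 series of rats therefore cannot be told. In non-repaired rats that did not run 5, 4, 5 and 4 members did not overlap with control at the 4 times, beside 61.5%, 10%, 21.7% and 20.4% of all genes. The call of Cxcl12 was lost after rescaling (0.47), without contralateral replicate 1 (0.83) and without control replicate 4 (0.88), the control with the lowest Cxcl12. Markers of other cell types moved with it at 3 DPI, and their part was not tested: calls in the higher direction covered 5 of 5 fibroblast markers (median 2.08 on the log2 scale), with a summed level of 352.9 to 963.1 TPM beside 48.75 to 168.8 TPM in control, and 7 of 8 monocyte or macrophage markers (1.41), at 67.74 to 183 TPM beside 14.43 to 34.4 TPM. None of these markers was at 0 throughout either group. Neutrophil markers summed to 8.71 to 103.9 TPM beside 1.28 to 5.66 TPM in control, with 2 of 5 called (S100a8 and S100a9), and T or natural killer cell markers to 8.17 to 15.07 TPM beside 3 to 4.32 TPM, with 1 of 6 called (Cd4). Endothelium markers summed to 86.05 to 94.86 TPM beside 38.2 to 77.39 TPM, with 0 of 5 called. Leaving out contralateral replicate 2 called Cxcr4 (1.19) and Cxcl14 (1.02), and leaving out control replicate 3 called Cxcl14 (1.00). At 7, 14 and 28 DPI limma called no member, beside 0.636%, 0.653% and 0.185% of all genes, and 4, 1 and 2 members had an unadjusted p under 0.05, beside 19.8%, 14.7% and 11.6% of all genes. With a pseudocount of 0.1 TPM Cx3cr1 was called over control in contralateral muscle at 3, 7, 14 and 28 DPI (2.35, 1.71, 1.95 and 1.78). Cx3cr1 was above 0 in every contralateral muscle, for example at 0.27, 0.24, 0.41 and 0.4 TPM at 7 DPI, where 3 controls were listed at 0.

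**Figure D3:**
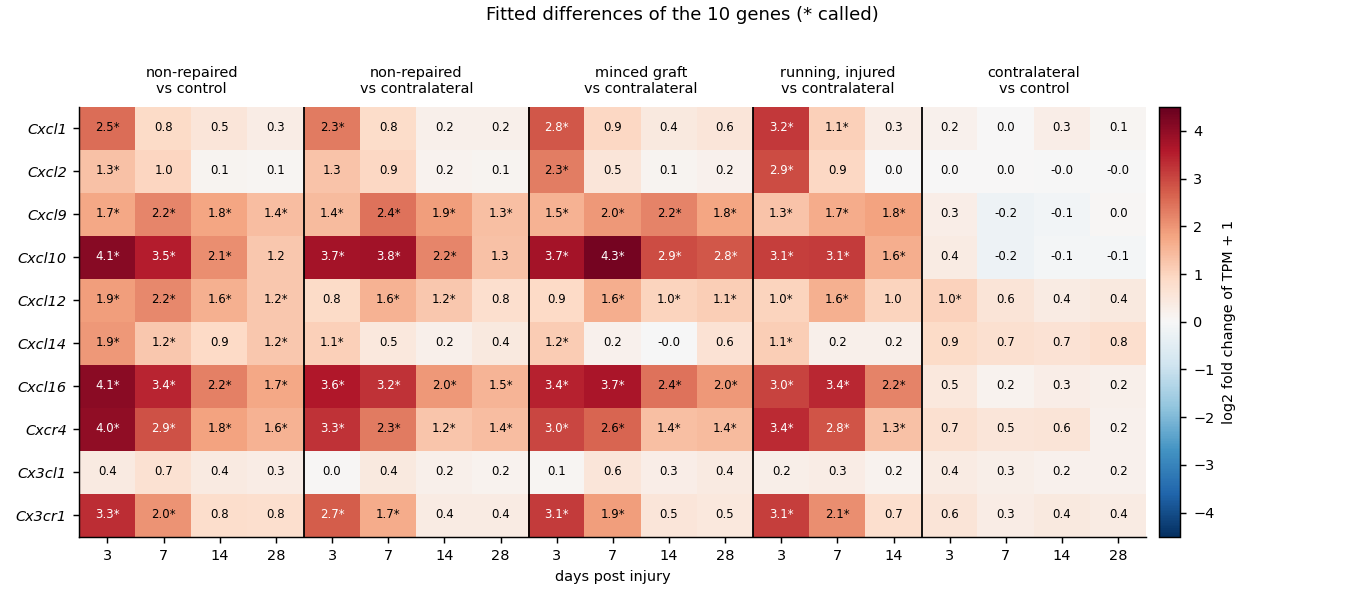
Fitted log2 fold changes of TPM + 1 (color and printed value) for the 10 genes (rows) by comparison and days post injury (columns); an asterisk marks a call. Cxcl16 and Cxcr4 carry an asterisk in every column that compares injured with control or contralateral muscle, and Cx3cl1 in none.

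Grafted muscle was compared with its own contralateral muscle and with non-repaired injury. Grafted injured muscle was called higher than its contralateral muscle for 8, 6, 5 and 5 members at the 4 times, beside 37.2%, 42.9%, 25.6% and 18.8% of all genes, and after rescaling for 6, 5, 3 and 3, beside 37%, 34.5%, 19.2% and 12.8% called in either direction. At 14 DPI the call of Cxcl12 (1.01) was lost after rescaling (0.31) and without contralateral replicate 1 (0.91) or injured replicate 2 (0.92). At 3 DPI Cxcl14 (1.16) was lost after rescaling (0.45) and without contralateral replicate 1 (0.93), and Cxcl12 (0.91) was called without contralateral replicate 2 (1.18). In the direct comparison of grafted with non-repaired injured muscle limma called no member at any time, beside 0.00883%, 0.0883%, 0.0265% and 0% of all genes. At an unadjusted p under 0.05 there were 1, 3, 0 and 1 members, beside 17.3%, 27%, 5.23% and 1.24% of all genes.

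Judged by the adjusted p alone, the difference nearest to a call was that of Cxcr4 at 7 DPI. It ranged from 27.63 to 50.59 TPM with graft (median 38.23) and from 15.69 to 48.68 TPM without (median 23.11), 8 muscles each. The groups overlapped, and the log2 fold change of 0.62 ± 0.17 had an adjusted p of 0.0146 with a 95% interval of 0.28 to 0.96, under the limit of 1. The monocyte or macrophage markers moved with it, and their part was not tested: none of 8 was called, their median log2 fold change was 0.60, and they summed to 1897 to 4056 TPM with graft (median 2384) and 576.4 to 2766 TPM without (median 1532), with no marker at 0 throughout a group. Cxcl16 at that time was 0.48 ± 0.18 (adjusted p = 0.0695) and Cx3cr1 0.39 ± 0.18 (adjusted p = 0.154). Within rats numbered 1 to 32 Cxcr4 read 27.63 to 50.59 TPM with graft and 20.33 to 48.68 TPM without, and within rats of the highest number range 27.99 to 43.98 and 15.69 to 26.02 TPM. For Cxcl10 the intervals were wide: 1.18 ± 0.71 at 28 DPI spanned -0.24 to 2.59, with 1.02, 31.38, 10.95 and 5.6 TPM in grafted muscle beside 1.51, 5.93, 3.31 and 1.65 TPM. For Cx3cl1 they were narrow, from -0.11 to 0.31 at 3 DPI and from -0.13 to 0.18 at 7 DPI.

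In running rats, injured over contralateral muscle with both treatments pooled gave 9, 7 and 4 called members at 3, 7 and 14 DPI, beside 35.6%, 40% and 24.6% of all genes, and after rescaling 6, 4 and 3, beside 37.6%, 33.1% and 18.7% called in either direction. At 28 DPI the labels of the contralateral libraries of running rats could not be used. At 14 DPI Cxcl10 (1.64) was lost without the contralateral graft replicate 1 (0.88) or the injured graft replicate 2 (1.25), and the contralateral graft replicate 2 read 13.85 TPM, above 6 of the 8 injured muscles. Cxcl12 (1.00, uncalled) was called at 14 DPI without contralateral graft replicate 2 (1.07), injured graft replicate 1 (1.06) or 3 (1.03), or injured non-repaired replicate 1 (1.02) or 3 (1.01). At 7 DPI Cxcl1 (1.06) was lost after rescaling (0.75) and without injured graft replicate 3 (0.95) or 4 (0.98) or injured non-repaired replicate 3 (0.90), and Cxcl2 (0.94) was called without injured graft replicate 2 (1.08) or injured non-repaired replicate 1 (1.04). At 3 DPI Cxcl12 was lost after rescaling (0.34) and without contralateral non-repaired replicate 1 (0.995), and Cxcl14 after rescaling (0.42) and without contralateral graft replicate 1 (0.99).

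Running against not running was compared within each treatment. In non-repaired muscle limma called no member, beside 0.0441%, 0%, 0.0177% and 0.0177% of all genes at the 4 times, and in grafted muscle none, beside 0% of all genes at each time. At an unadjusted p under 0.05 there were 2, 2, 1 and 0 members in non-repaired and 4, 1, 0 and 0 in grafted muscle, beside 14.5%, 21.3%, 9.96% and 3.79% and beside 5.24%, 1.83%, 0.627% and 8.4% of all genes. Among the larger differences were those of the CXCR2 ligands at 3 DPI. Cxcl2 ranged from 0.95 to 55.16 TPM in non-repaired muscle of running rats (median 5.77, n = 8) beside 2.4, 1.48 and 0.91 TPM without running, a log2 fold change of 1.35 ± 0.53 with an adjusted p of 0.224. In grafted muscle it ranged from 2.38 to 48.99 TPM (median 6.16, n = 6) beside 1.28 to 10.7 TPM, a log2 fold change of 0.98 ± 0.44 with an adjusted p of 0.842. Cxcl1 ran higher in the same groups, by 0.75 ± 0.27 (adjusted p = 0.192) and 0.47 ± 0.22 (adjusted p = 0.879), with overlapping groups. Cxcl10 in grafted muscle was lower with running at 7 DPI, at 6.52, 10.83, 16.7 and 8.67 TPM beside 12.68 to 67.45 TPM, with a 95% interval of the log2 fold change from -2.73 to -0.28 and an adjusted p of 1. None of these passed the adjustment, and the interaction of repair with running called no member either, beside 0.00883%, 0%, 0% and 0.00883% of all genes and with 0 members at an unadjusted p under 0.05 at each time, beside 4.21%, 2.9%, 2.27% and 0.697% of all genes.

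**Figure D4:**
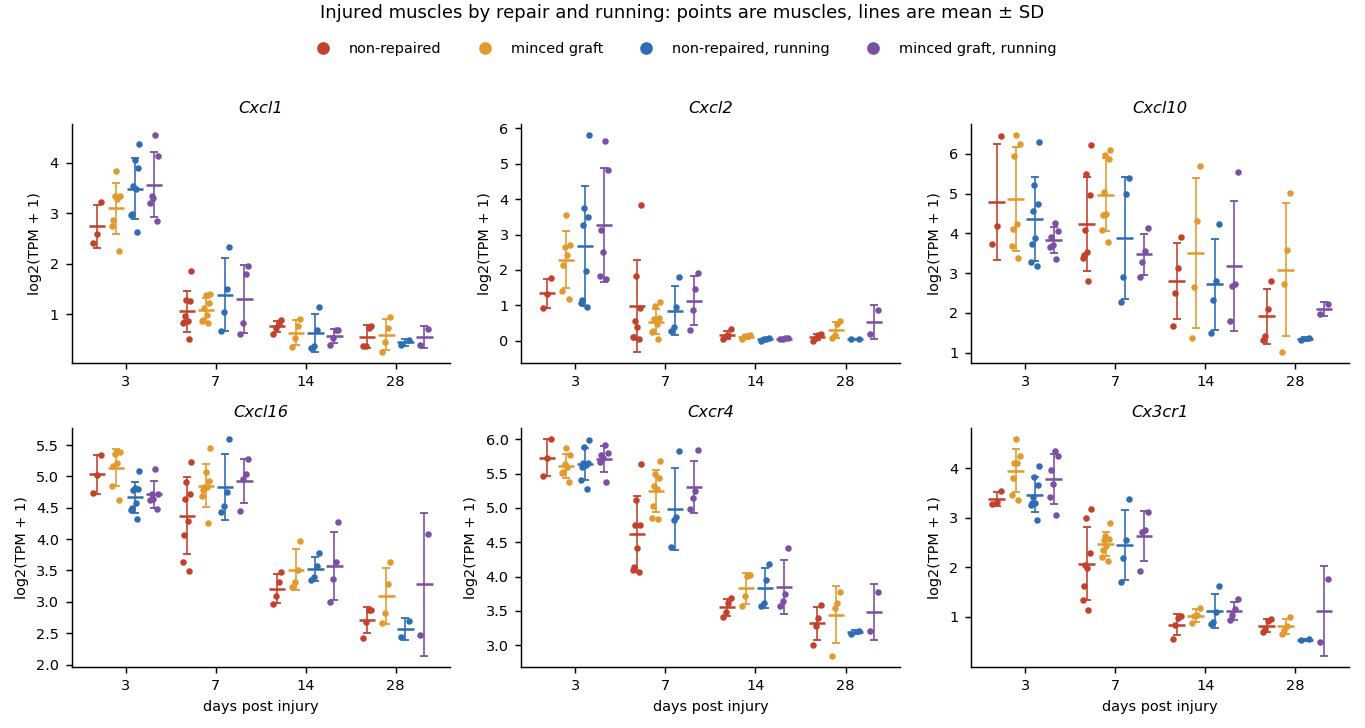
Levels of 6 genes as log2(TPM + 1) (vertical axes, which do not start at 0 in every panel) in injured muscle by days post injury, for non-repaired and grafted muscle of rats that did or did not run. Points are muscles, and bars are the mean ± SD. Grafted and non-repaired muscles of rats that did not run overlapped at every time for all 6 genes, and Cxcl2 spread widely at 3 DPI in running rats, up to 55.16 TPM.

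The course of each member was compared with that of the others over the 31 group means of log2(TPM + 1), as a description across groups that share the injury and the time axis. Cxcl1 and Cxcl2 had a Pearson r of 0.96, Cxcl9 and Cxcl10 0.90, Cxcl16 and Cxcr4 0.98, and Cxcl12 and its receptor Cxcr4 0.91. Cx3cl1 and its receptor Cx3cr1 had 0.57, and the lowest value of any pair was 0.33, for Cxcl2 and Cx3cl1. The 3 other tested genes most like each member are given in order of r. For Cxcl1 they were Aass (0.985), Mctp2 and Polq, and for Cxcl2 Gjb2 (0.971), Kctd4 and Cxcl3, a neutrophil chemokine gene (0.965). For Cxcl9 they were Cdkn1a (0.979), Dclk1 and Osbpl5, and for Cxcl10 Hsh2d (0.975), MGC108823 and Mx1, an interferon-induced antiviral gene (0.968). For Cxcl12 they were Fkbp7 (0.984), Cd248 and Gucy1b3, and for Cxcl14 Steap4 (0.928), Mme and Asgr2. For Cxcl16 they were Plekho1 (0.997), Cd83 and Dusp18, and for Cxcr4 Slc15a3 (0.993), Lpcat1 and Arf3. For Cx3cr1 they were Ptger2 (0.994), Parvg and Ccnb1, and for Cx3cl1 Tbx21 (0.885), Prf1 and Phf11, the lowest best match of any member.

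Other genes of the CXC and CX3C pathways, and the response and marker genes further below, were counted on the deposited values without rescaling. The median shift of all genes over control (0.96, 0.91, 0.53 and 0.52 at the 4 times) therefore remains in their values. Of 17 listed, 16 were in the table and 14 were tested, and over control 12, 10, 7 and 4 were called higher and none lower at the 4 times, when 48.3%, 45.6%, 25% and 21.1% of all genes were called higher, with a median log2 fold change of 1.45, 1.68, 1.01 and 0.66. At 28 DPI the list summed to 196.5 to 319.9 TPM in non-repaired injured, 73.07 to 75.47 TPM in contralateral and 38.18 to 65.24 TPM in control muscle. Counts over contralateral muscle, the nearer reference, are not given here. Pf4, a platelet chemokine also made by macrophages, averaged 18.5 ± 2.86 TPM in control muscle (SD, n = 4) and 1060 ± 367 TPM at 3 DPI (n = 3), a log2 fold change of 5.72 ± 0.33, and it was still at 3.16 ± 0.31 at 28 DPI. Cxcl13, which draws B cells, averaged 13.6 ± 3.13 TPM at 3 DPI and 26.8 ± 17.6 TPM at 7 DPI beside 0.175 ± 0.148 TPM in control, with log2 fold changes of 3.63 ± 0.54 and 4.29 ± 0.43. Cxcl6, another ligand of the CXCR2 type, averaged 6.79 ± 3.16 TPM at 3 DPI and was listed at 0 in every control muscle. Cxcl3, of the same type, averaged 1.97 ± 1.35 TPM at 3 DPI and 0.09 ± 0.132 TPM at 14 DPI, and was likewise listed at 0 in the controls.

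The receptors for the other ligands were at low levels. Cxcr2 averaged 1.87 ± 0.40 TPM at 3 DPI (log2 fold change 1.43 ± 0.25) and was not called from 7 DPI on (0.81 ± 0.20 at 7 DPI). Cxcr3 was called at 3, 7 and 14 DPI and was highest at 7 DPI, at 2.29 ± 0.78 TPM with a log2 fold change of 1.61 ± 0.17. Cxcr6, the receptor for CXCL16, was highest at 7 DPI as well, at 6.14 ± 3.34 TPM with a log2 fold change of 2.65 ± 0.33, and was not called at 28 DPI (0.69 ± 0.38, adjusted p = 0.101). Ackr3, a second receptor for CXCL12 that removes it from the tissue, was called at 3 DPI (1.23 ± 0.21) and lay just under the limit at 7 and 14 DPI (0.98 and 0.99). The sheddases Adam10 and Adam17 had log2 fold changes of 2.21 ± 0.18 and 2.08 ± 0.16 at 3 DPI. Adam10 was called to 28 DPI (1.25), whereas Adam17 was at 0.997 then, just under the limit. Dpp4, a peptidase that trims CXCL9, CXCL10 and CXCL12, was called at all 4 times and highest at 7 DPI (1.74 ± 0.23).

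Genes known to respond to the signals that induce several members were counted beside the same shares of all genes called higher, 48.3%, 45.6%, 25% and 21.1%. Of 13 listed NF-kB response genes 12 were tested, and 12, 8, 6 and 4 were called higher over control, those at 28 DPI being Ccl2, Icam1, Sele and Socs3. At 28 DPI this list summed to 78.26 to 98.1 TPM in non-repaired injured, 55.04 to 63.79 TPM in contralateral and 26.72 to 70.91 TPM in control muscle. Of 12 listed interferon gamma response genes 11 were tested, and 11, 9, 8 and 8 were called higher over control, those at 28 DPI being Cd74, Gbp2, Gbp5, Ifngr1, Irf1, Irf8, Psmb8 and Psmb9. At 28 DPI this list summed to 336.8 to 397.8 TPM in non-repaired injured, 157.5 to 180.3 TPM in contralateral and 85.61 to 140.4 TPM in control muscle. Contralateral muscle is thus the nearer reference, and counts over it are not given here for either list. Markers of other cell types moved with the members, and their part in the results was not tested. All 8 monocyte or macrophage markers (Adgre1, Cd14, Cd163, Cd68, Csf1r, Itgam, Lyz2 and Mrc1) were called higher at every time, and their summed level was 14.43 to 34.4 TPM in control muscle, 4300 to 5645 TPM at 3 DPI, 576.4 to 2766 TPM at 7 DPI and 217 to 748.1 TPM at 28 DPI. Neutrophil markers summed to 1.28 to 5.66 TPM in control muscle and 75.78 to 271.1 TPM at 3 DPI, and 5, 3, 2 and 0 of 5 tested were called higher. T or natural killer cell markers were called in 5, 6, 5 and 2 of 6, fibroblast markers (Col1a1, Dcn, Lum, Pdgfra and Pdpn) in 5 of 5 at every time, and endothelium markers in 3, 4, 2 and 1 of 5. Of 8 muscle fiber markers 8, 6, 2 and 0 were called lower, beside 4.24%, 2.42%, 0.547% and 0.212% of all genes.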

How the data were processed

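RNA of rat TA muscle was sequenced as paired-end reads from Truseq libraries, per the labels. The authors pseudo-aligned the reads with Kallisto (version not given in the sources used here) to rat build 6.0 and deposited TPM per gene symbol, the only unit used. TPM keeps no depth, and the depth of a single library was not given in the sources used here.

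Of 138 libraries, 9 were left unassigned: 8 of running rats at 28 DPI whose title and labels name opposite muscles, and 1 whose day differs from that of its rat. Another 13 with fewer than 7000 symbols above 1 TPM were dropped, and libraries of the same muscle were averaged (2 muscles). Groups came from the labels. The table ends within the alphabet, and its last, incomplete entry was left out.

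Genes with a mean above 1 TPM in at least 1 group (11328) were fitted on log2(TPM + 1) with limma 3.58.1 (R 4.3.3, intensity trend) in one model of 31 groups with 83 residual degrees of freedom. Calls needed an adjusted p (Benjamini-Hochberg over all tested genes) under 0.05 and a log2 fold change beyond 1. Intervals are 95%. The study's methods describe a test on counts, which were not analysed here. The p-values measure the spread between muscles, and some muscles share a rat. Python 3.11.15, numpy 2.4.6, pandas 2.3.3 and scipy 1.17.1 made the summaries and statmod 1.5.0 the random block. The code was tested on simulated data.

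Muscles of one rat are pairs by design, for 36 rats. Over 34 pairs the mean correlation of deviations from the group means was 0.0944, with 15 above 0.1, and the within-rat correlation of the block was 0.0259.

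The text names all 10 members and the 3 tested genes most like each by Pearson r over group means, and gives the pathway and marker lists by counts, with values for some of the pathway genes. Members and lists were chosen with earlier results of these data known. Alternatives were a pseudocount of 0.1 TPM, no filter, size factors, the rat as a block, single libraries, all libraries kept, compared groups alone, adjusted p alone, control muscles averaged per rat, rats that did not run, the rat with a conflicting day left out, and each muscle of groups of 2 to 5 left out in turn. A covariate for the rat number range was added after the 7 DPI values were seen.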

Additional observations from a re-analysis of the deposited data

Results flagged for a closer look

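Of 160 group and gene combinations with 4 to 10 muscles, 8 held a muscle that stood apart by Dixon's criterion, about the 5% that chance gives. In control muscle these were Cxcl12 in replicate 4 (18.23 TPM, next 27.83), Cx3cl1 in the same replicate (0.9 TPM, next 1.33), Cxcl2 in replicate 1 (0.08 TPM, the others listed at 0) and Cx3cr1 in replicate 3 (0.18 TPM, the others listed at 0). Non-repaired muscle at 7 DPI held Cxcl2 in injured replicate 4 (13.25 TPM, next 2.53) and Cxcl12 in contralateral replicate 4 (32.38 TPM, next 40.51). Rats with a graft held Cxcl12 in injured replicate 2 at 14 DPI (96.29 TPM, next 76.54) and Cxcl2 in contralateral replicate 4 at 7 DPI (0.05 TPM, the others listed at 0).

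The 8 libraries of running rats at 28 DPI whose labels name opposite muscles entered no comparison. Above the highest control lay 2 of the 8 for Cxcl1 and Cxcl2, 5 for Cxcl9, Cxcl10 and Cx3cl1, and 6 for Cxcl16. It was 7 for Cxcl12 and Cxcr4 and all 8 for Cxcl14 and Cx3cr1. The share of all genes was not taken, and the highest contralateral value of the assigned muscles exceeded the highest control in each member as well. The highest values of the 8 libraries were 0.82 TPM for Cxcl1, 0.16 for Cxcl2, 18.87 for Cxcl9, 3.32 for Cxcl10, 74.67 for Cxcl12, 59.18 for Cxcl14, 7.66 for Cxcl16, 12.31 for Cxcr4, 2.09 for Cx3cl1 and 1.12 for Cx3cr1. The sorted values of Cxcl16 were 1.03, 1.05, 1.7, 1.87, 4.29, 4.78, 4.79 and 7.66 TPM, and those of Cxcl9 were 5.5, 6.0, 6.51, 12.88, 15.05, 16.38, 16.82 and 18.87 TPM.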

How the results depend on the processing

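Of 380 values (10 genes in 38 comparisons), 99 were called, and no called value reversed under any alternative that could be run. Shares in brackets are those of all genes called in either direction under the same setting. Size factors ended 34 calls and gave none. They moved the count of called members over control from 9 to 5 (40.8%) at 3 DPI and from 5 to 2 (14.5%) at 28 DPI. Over contralateral muscle they moved it from 5 to 3 at 14 DPI in non-repaired (14.1%) and grafted muscle (19.2%), from 5 to 3 at 28 DPI in grafted muscle (12.8%) and from 7 to 4 at 7 DPI in running rats (33.1%). Keeping all libraries ended 12 calls and gave 3. From 7 to 14 DPI the count of 4 became 0 with size factors (4.2%) or all libraries (2.55%), 7 with the adjusted p alone (71%) and 2 with the range of rat numbers (4.42%). From 3 to 7 DPI the 3 became 6 with the adjusted p alone (38.7%). Contralateral against control at 3 DPI, 1 member, became 0 with size factors (2.77%), all libraries (1.59%) or the compared groups alone (0.194%), 2 with a pseudocount of 0.1 TPM (19.3%) and 4 with the adjusted p alone (54.1%). At 7 DPI 0 became 1 with that pseudocount (3.54%), all libraries (36.9%), the adjusted p alone (7.05%) or the range of rat numbers (2.46%), and at 14 and 28 DPI 1 with that pseudocount (4.27% and 2.2%). The pseudocount ended no call and gave 25, with 8 members over control at 28 DPI (37.6%) and 7 over contralateral in running rats at 14 DPI (38.2%). The adjusted p alone gave 8 over control at 14 DPI (72.3%) and 1 for graft against no repair at 7 DPI (8.19%). The cause of these changes was not tested beyond what each setting does by construction. With the rat as a replicate block, 9 members were called over control at 3 DPI as without it, and none of the 380 calls changed. The 4 control muscles averaged per rat ended 1 of 27 calls, that of Cxcl2 over control at 3 DPI. Leaving out single muscles (71 refits) gave 8 to 9 members over control at 3 DPI, 7 at 7 DPI, 5 to 6 at 14 DPI and 5 at 28 DPI. Over contralateral muscle it gave 5 to 8, 6, 4 to 5 and 3 (non-repaired), 7 to 9, 4 to 5 and 5 at 3, 14 and 28 DPI (grafted), and 8 to 9, 6 to 8 and 3 to 5 at 3, 7 and 14 DPI (running). For contralateral against control it gave 0 to 3 at 3 DPI and 0 at the other times, for the steps between days 2 to 3, 3 to 4 and 0, and for graft, running and their interaction 0 where refits were made. Graft against no repair at 7 DPI, grafted over contralateral muscle at 7 DPI and running in grafted muscle at 3 DPI were not refitted, since each of their groups held more than 5 muscles. Precision is limited by 2 contralateral muscles in most groups and by 4 control muscles of 2 rats.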
